A study of Mus musculus with 12 samples.

Results

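miR-26a and miR-26b, the members of the miR-26 family of small regulatory RNAs, were followed over 3 days of osteoclast formation in mouse bone marrow cultures. They were taken by name and not by any measured value, as the 2 of 696 mouse miRNAs on the array named mmu-miR-26a and mmu-miR-26b. Bone marrow came from long bones of male C57BL/6 mice aged 6-8 weeks and was depleted of B220/CD45R+ B cells and CD3+ T cells by magnetic sorting. The remaining cells, enriched for osteoclast precursors but still a mixture, received M-CSF at 30 ng/ml together with RANKL, also at 30 ng/ml, for 1, 3, or 5 days. RNA of 4 cultures per day was measured on 12 single-color Agilent miRNA arrays, 200 ng of total RNA and 1 culture per array. All cultures carried both cytokines and there was no group without RANKL, so that an effect of RANKL and an effect of time in culture cannot be told apart.

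Osteoclasts are the large multinucleated cells that resorb bone. They form by fusion of precursors of the monocyte and macrophage lineage, for which M-CSF is the survival and growth factor and RANKL the differentiation signal. A miRNA is loaded into an Argonaute protein and pairs, mainly through the bases of its seed, with messenger RNAs that are then repressed. The miR-26 genes lie in introns of the CTDSP genes, which encode small phosphatases of the carboxy-terminal domain of RNA polymerase II, and miR-26 is known as a broadly expressed family that restrains cell cycle genes and the histone methyltransferase gene Ezh2.

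The mature sequences are shown because they set what the family shares and what the probes can tell apart. Sequences and places are those of RefSeq for GRCm38.p6, written 5′ to 3′, with the seed (bases 2 to 8) in capitals.
miR-26a-5p: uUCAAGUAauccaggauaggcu
miR-26b-5p: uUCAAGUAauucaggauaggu
The identical miR-26a of 22 bases is cut from a pair of hairpins on plus strands. Mir26a-1 has its mature sequence at chr9:119031811-119031832, within the gene Ctdspl, and Mir26a-2 at chr10:126995543-126995564, within Ctdsp2. The miR-26b of 21 bases comes from Mir26b, at chr1:74394324-74394344 on the plus strand within Ctdsp1. The seed UCAAGUA was carried by 2 of 1679 mature mouse names in the RefSeq table (0.119%), which are these 2. Over the 21 bases that can be compared, 19 were identical.

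The members differ at the positions written in capitals next, counted from 1 at the 5′ end, and these are C11U and C21U with the base of miR-26a first.
miR-26a-5p: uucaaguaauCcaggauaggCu
miR-26b-5p: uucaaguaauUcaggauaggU
Each member was measured by 2 probes of 10 spots each, and every probe covered both differing positions. The probe bases opposite those positions are in capitals.
miR-26a probe A_54_P2481: aGcctatcctgGatt
miR-26a probe A_54_P4384: aGcctatcctgGatta
miR-26b probe A_54_P2483: AcctatcctgAattacttg
miR-26b probe A_54_P2484: AcctatcctgAattacttga
The miR-26a probes reached from base 8 or 7 to base 22, and the miR-26b probes from base 3 or 2 to base 21. In the array's annotation (mm9) the first miR-26a probe is listed at both chr9:118940936-118940950 and chr10:126432606-126432620, so that the miR-26a signal sums its genes. Binding of a probe to the other member was not tested. Because the probes differ in length and sequence, levels of miR-26a and miR-26b were not set against each other, and only their changes were compared.

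Both members were measured well. The scanner software marked each as detected on 12 of 12 arrays, and no spot was saturated. Their mean spot signal was 53.3 to 127 times the local background, and the error the software gives for the total signal was 7.21% to 7.32% of it. The arrays themselves differed. Per array, 233 to 276 miRNAs were detected at day 1, 211 to 226 at day 3, and 186 to 269 at day 5, where the lowest number belonged to replicate 4. The summed signal of the detected miRNAs at day 3 averaged 58.5% of that at day 1, and at day 5 it was 80.7%. The day 3 arrays filled a slide of their own (slide 2, read in its own scan), so that day 3 and slide cannot be told apart. Days 1 and 5 shared slide 1, and the comparison of these days lay within it.

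Before any normalization, miR-26a had total signals, in linear intensity units, of 12663, 9876, 13132, and 9760 in the 4 cultures of day 1. At day 3 the signals of miR-26a were 6810, 5877, 5970, and 6159, and at day 5 they were 11978, 10036, 12644, and 12147. Every day 3 array was therefore below every array of the other days, whereas days 1 and 5 overlapped. How many of all miRNAs lacked overlap before normalization was not counted. The median change from day 1 to day 3 was then -0.77 on the log2 scale over the 334 miRNAs detected on at least 1 array. The mean of miR-26a at day 3 was 54.6% of its day 1 mean, close to the 58.5% of the summed signal, and at day 5 it was 103%, when the summed signal was 80.7%.

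miR-26b had total signals of 14196, 11286, 14625, and 7971 at day 1, where replicate 4 was the lowest. At day 3 its signals were 6379, 5454, 5425, and 5603, and at day 5 they were 11708, 9532, 10355, and 10635. As for miR-26a, all day 3 arrays were below all others, again without a count over all miRNAs to set beside it. The day 3 mean of miR-26b was 47.5% of its day 1 mean, and the day 5 mean was 87.8%.

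**Figure D1:**
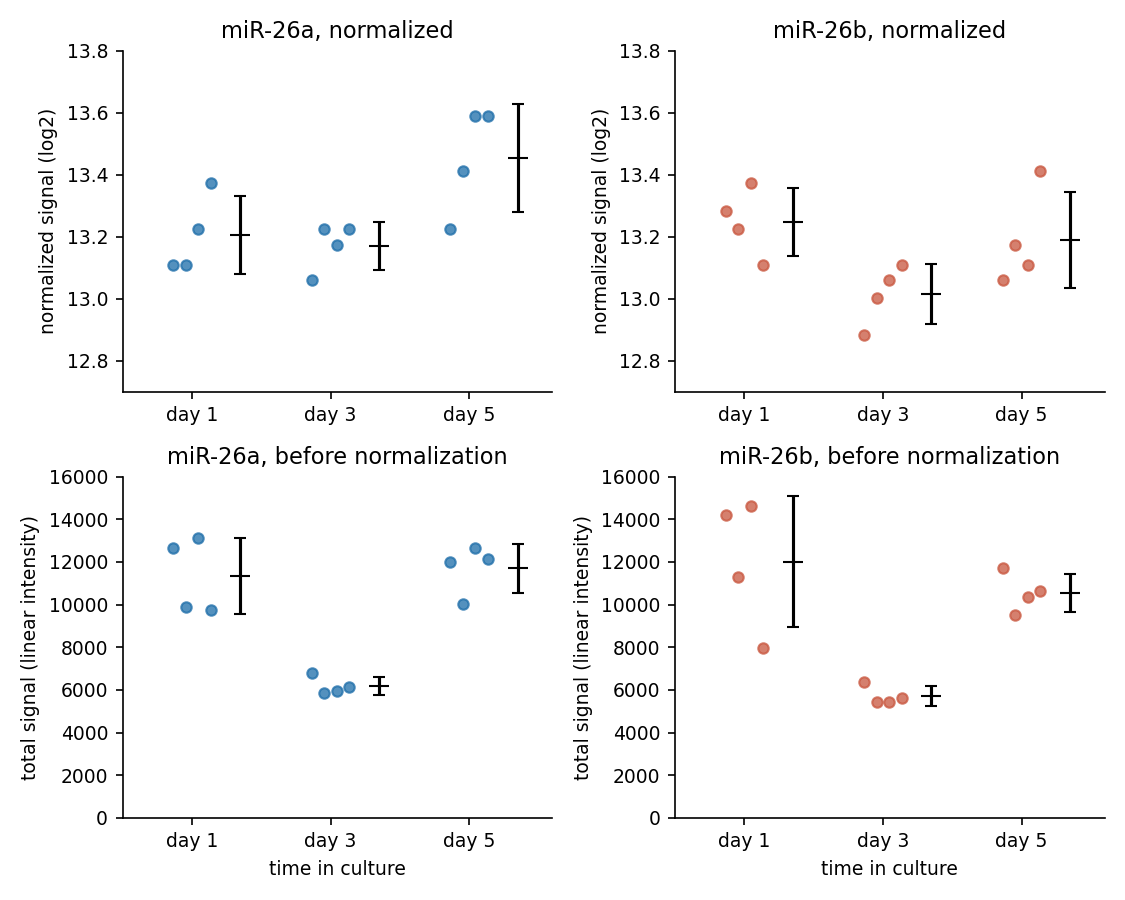
Level of miR-26a (blue) and miR-26b (red) in each culture at days 1, 3, and 5, above as quantile normalized log2 signal on an axis that does not start at 0 and below as linear total signal before normalization. Points are the 4 arrays of a day in replicate order, and bars are the mean ± SD. The drop of both at day 3 before normalization (54.6% and 47.5% of the day 1 means) shrinks after it to means that differ by 0.03 and 0.23 on the log2 scale.

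Since the methods of the study compare arrays after quantile normalization, total signals were normalized in this way over the 334 miRNAs with detection on 1 array or more, and all changes are then relative to the other miRNAs. The normalization gives each array the same set of values, so that equal values on several arrays mean equal rank. On this log2 scale miR-26a was at 13.11, 13.11, 13.22, and 13.37 at day 1, with a mean of 13.21 ± 0.13 (SD, n = 4). At day 3 miR-26a was at 13.06, 13.22, 13.17, and 13.22 (13.17 ± 0.08), and at day 5 at 13.22, 13.41, 13.59, and 13.59 (13.45 ± 0.17). The order of the means of miR-26a was day 3, day 1, day 5. Days 3 and 1 overlapped, with 1 of the 4 day 3 arrays below all arrays of day 1, and 3 of the 4 day 5 arrays were above all arrays of day 1.

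Normalized miR-26b was at 13.28, 13.22, 13.37, and 13.11 at day 1 (13.25 ± 0.11, SD, n = 4). At day 3 it was at 12.88, 13.00, 13.06, and 13.11 (13.01 ± 0.10), and at day 5 at 13.06, 13.17, 13.11, and 13.41 (13.19 ± 0.15). The order of the means of miR-26b was day 3, day 5, day 1. For miR-26b, 3 of the 4 day 3 arrays were below all arrays of day 1, whereas day 5 overlapped with both other days.

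Neither member passed the test for change over the 3 days, an F test of limma with Benjamini-Hochberg adjustment over 334 miRNAs and a threshold of 0.01. The adjusted p was 0.0509 for miR-26a and 0.107 for miR-26b. So 0 of 2 members were called, where 62.9% of all miRNAs tested were called and 46.7% were called and also changed more than 2-fold. Among the 148 miRNAs detected on all 12 arrays, as the miR-26 members were, the shares were 73.0% and 41.2%. The unadjusted p were 0.0369 and 0.0853, and the analysis of variance named in the study's methods gave 0.0276 for miR-26a and 0.0615 for miR-26b, again above the threshold.

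miR-26a at day 5 was 1.19-fold its day 1 level. The difference was 0.25 on the log2 scale (SE 0.10, 95% interval 0.02 to 0.47), with an adjusted p of 0.0472 in the limma contrast, over the threshold of 0.01. An exact permutation test (two-sided, 4 against 4 arrays) gave p = 0.0857, where the smallest p possible is 0.0286. Between days 1 and 3, miR-26a differed by -0.03 (SE 0.10, -0.26 to 0.19, limma adjusted p 0.789, exact permutation p 0.743), and the sign of this value turned without day 1 replicate 4 (0.02) or day 3 replicate 1 (0.0047). Between days 3 and 5 the difference of miR-26a was 0.28 (SE 0.10, 0.06 to 0.51), or 1.22-fold, with a limma adjusted p of 0.0557 and an exact permutation p of 0.0857.

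Under quantile normalization miR-26b had its largest difference between days 1 and 3, whereas under 3 other scalings and for both single probes days 3 and 5 differed more. At day 3 it was 0.851-fold its day 1 level, a difference of -0.23 (SE 0.10, 95% interval -0.45 to -0.02), with a limma adjusted p of 0.0553 and an exact permutation p of 0.0571. With day 1 replicate 4 and day 5 replicate 4 both left out, the arrays that stood apart in the level of miR-26b or in the number of miRNAs detected, this value was -0.28 with a limma adjusted p of 0.00908. That removal was chosen after seeing the data. With only day 1 replicate 4 left out the limma adjusted p was 0.0334, and with only day 5 replicate 4 left out it was 0.0248. Between days 1 and 5, miR-26b differed by -0.06 (SE 0.10, -0.27 to 0.16, limma adjusted p 0.622, exact permutation p 0.543). From day 3 to day 5 the difference was 0.17 (SE 0.10, -0.04 to 0.39, limma adjusted p 0.214, exact permutation p 0.143).

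No pair of days separated the arrays of either member after normalization. Of all 334 miRNAs, 59.6% had no overlap between days 1 and 3, 62.6% between days 1 and 5, and 39.2% between days 3 and 5. At the adjusted p of 0.01, 52.4%, 60.8%, and 25.4% of all miRNAs were called in these contrasts, and 0 of 2 members in each. The 6 intervals together reached from 0.733-fold to 1.42-fold, so that a change of 2-fold lay outside each of them under quantile normalization.

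**Figure D2:**
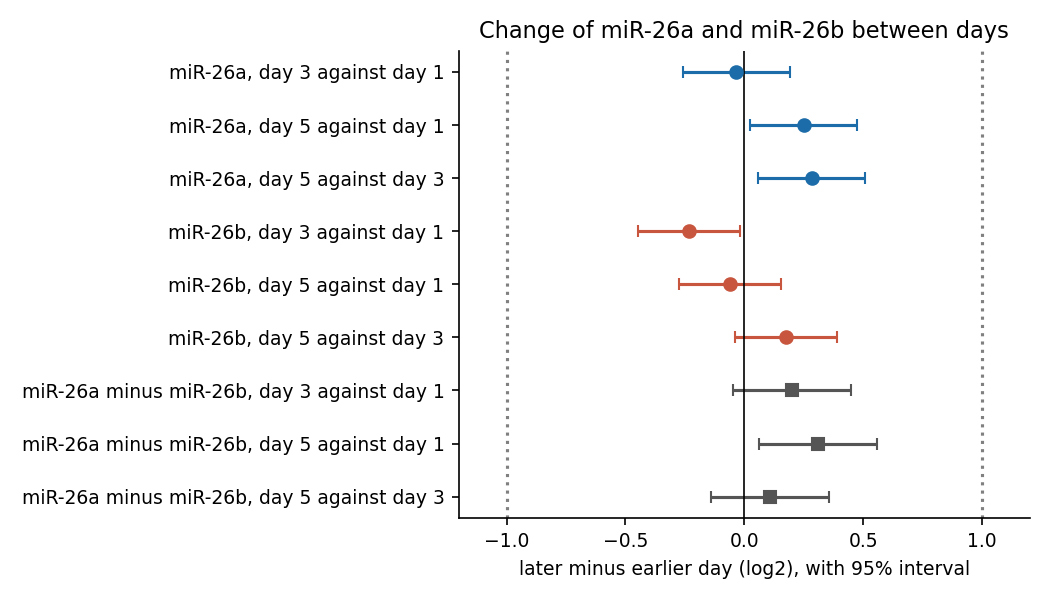
Change of miR-26a (blue), miR-26b (red), and of their within-array difference (gray squares) between each pair of days, as later minus earlier day on the log2 scale, with 95% intervals from limma. Dotted lines mark a 2-fold change. The 6 intervals of the single members reach from 0.733-fold to 1.42-fold and stay inside the dotted lines.

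Set beside all miRNAs tested, the members were among those that differed least. The largest difference between any pair of day means was 0.28 for miR-26a, or 1.22-fold, and 19 of 334 miRNAs (5.69%) had a smaller one. For miR-26b it was 0.23, or 1.18-fold, and 10 of 334 (2.99%) had a smaller one. The median over all 334 miRNAs was 1.73, or 3.32-fold, and 216 of them differed by more than 2-fold in size. The same was counted over the 148 miRNAs detected on all 12 arrays, where the median was 0.85 on the log2 scale. There, 16 miRNAs (10.8%) had a smaller difference than miR-26a and 8 (5.41%) a smaller one than miR-26b. The place of the members moved with the processing. Under the 4 other scalings 1.80% to 13.2% of the 334 miRNAs had a smaller difference than miR-26a and 6.89% to 11.4% a smaller one than miR-26b, with no scaling 26.0% and 32.6%, and with normexp background correction 24.9% and 17.7%.

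**Figure D3:**
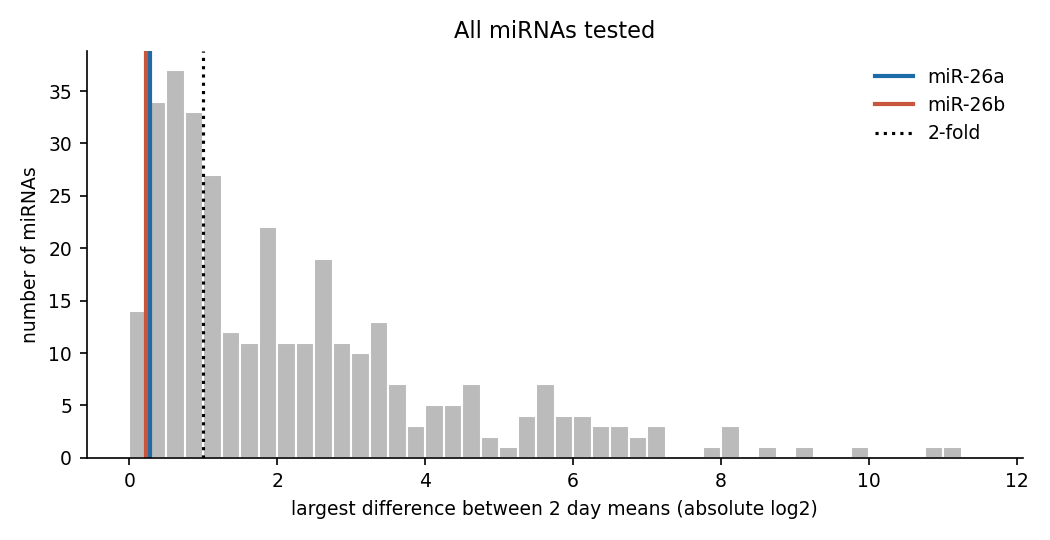
Number of miRNAs by the largest difference between a pair of day means (absolute log2), over the 334 miRNAs tested. The lines for miR-26a (0.28) and miR-26b (0.23) lie near the left end, below the dotted line of a 2-fold change.

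Whether the members changed alike was asked within each array, where a factor common to the array cancels. Normalized miR-26a minus miR-26b was -0.17, -0.11, -0.15, and 0.26 at day 1. At day 3 the difference was 0.18, 0.22, 0.11, and 0.11, and at day 5 it was 0.16, 0.24, 0.48, and 0.18. It was thus negative in 3 of 4 cultures at day 1 and positive in all 8 later ones, with replicate 4 of day 1 on the side of the later days. The mean difference was -0.04 ± 0.21 at day 1, 0.16 ± 0.05 at day 3, and 0.265 ± 0.15 at day 5 (SD, n = 4 each).

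The change of miR-26a exceeded that of miR-26b by 0.31 from day 1 to day 5 (95% interval 0.06 to 0.56, or 1.04- to 1.47-fold). The exact two-sided permutation test gave p = 0.114, adjusted over the 3 pairs of days to 0.143, and limma gave an adjusted p of 0.0598, with 0.0301 to 0.705 over the alternatives tried with all 12 arrays. The highest value came from a fit with an intensity trend, which sets the expected spread by mean level. There the within-array difference, being near 0, was given the spread of the dimmest miRNAs (SE 0.28, against 0.11 without the trend). That value therefore cannot show how firm the excess is. From day 1 to day 3 the excess was 0.20 (-0.05 to 0.45, exact permutation p 0.143, adjusted 0.143), and from day 3 to day 5 it was 0.11 (-0.14 to 0.36, exact permutation p 0.143, adjusted 0.143). Under a threshold of 0.05 none was called by the exact test or by limma in the main fit. With other filters on dim miRNAs, limma gave the excess from day 1 to day 5 adjusted p under 0.05 (0.0474, 0.0301, and 0.0446). The size of the excess and its p values depended on day 1 replicate 4, which lowered the excess. Without that array the excess was 0.41 from day 1 to day 5 and 0.29 from day 1 to day 3, and the arrays then no longer overlapped. Each had an exact permutation p of 0.0286 (adjusted 0.0429), the smallest possible for 4 against 3 arrays.

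Before normalization the excess of miR-26a over miR-26b was smaller, at 0.20 from day 1 to day 5 (exact permutation p 0.200, adjusted 0.300), 0.17 from day 1 to day 3, and 0.028 from day 3 to day 5 (exact permutation p 0.714). The ratio of the total signal of miR-26a to that of miR-26b was 0.892, 0.875, 0.898, and 1.22 at day 1. It was 1.07, 1.08, 1.10, and 1.10 at day 3 and 1.02, 1.05, 1.22, and 1.14 at day 5. The value of the ratio itself depends on the probes, and only its shift between arrays was compared. On day 1 replicate 4, where the ratio was high, miR-26b had the lowest total signal of the day, 7971 against 11286 to 14625, while miR-26a at 9760 was near replicate 2 at 9876.

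**Figure D4:**
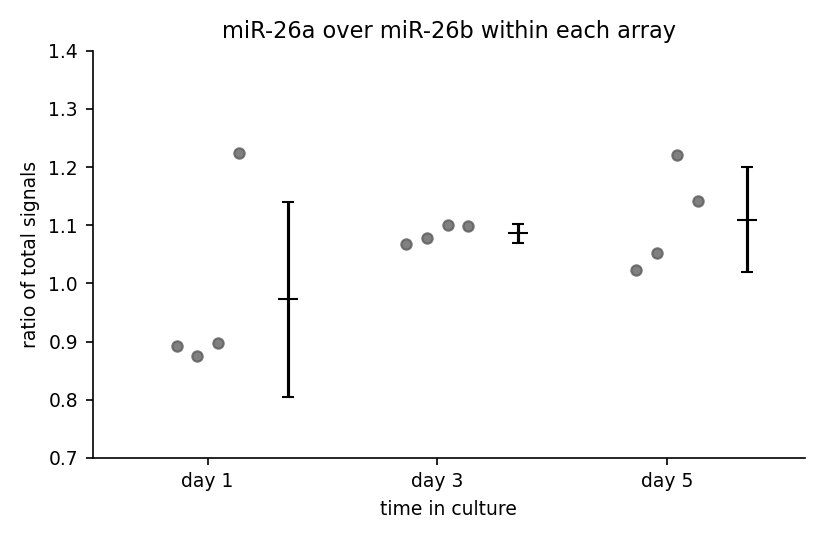
Ratio of the total signals of miR-26a and miR-26b before normalization on each of the 12 arrays, by day, on an axis that starts at 0.7. Points are the 4 arrays of a day in replicate order, and bars are the mean ± SD. Replicate 4 of day 1, at 1.22, lies apart from the other day 1 arrays at 0.875 to 0.898.

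The probes of each member were also tested singly, on the mean processed spot signal with limma and Benjamini-Hochberg adjustment over 847 probes. Between days 1 and 5 both probes of miR-26a gave positive values, 0.32 (adjusted p 0.0439) and 0.29 (adjusted p 0.0121). For miR-26b the probes gave 0.03 and 0.11 (adjusted p 0.832 and 0.320), where the quantile normalized total signal gave -0.06. From day 1 to day 3 the miR-26b probes gave -0.20 and -0.15, and the miR-26a probes gave 0.12 and 0.02. Over the 3 days the adjusted p of the F test was 0.105 and 0.0193 for the miR-26a probes and 0.0866 and 0.0626 for the miR-26b probes, so that no probe passed 0.01.

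The direction given for day 5 against day 1 depended on the scaling for miR-26b and not for miR-26a. Over 6 ways to scale the arrays, miR-26a differed by 0.04 to 0.39 and miR-26b by -0.16 to 0.19. The median change of all 334 miRNAs itself moved with the scaling, from -0.51 to 0.11. Relative to that median, miR-26a was at 0.14 under quantile normalization and at 0.55 under the other scalings, and miR-26b was at -0.17 and at 0.35. The other scalings apply at most a single factor per array, which shifts each miRNA and the median alike. Their equal values follow from this and are no separate support. With arrays scaled to the summed signal of their detected miRNAs, miR-26a passed the threshold from day 1 to day 5 at 0.35 (limma adjusted p 0.00371) and from day 3 to day 5 at 0.45 (0.00197), and miR-26b from day 3 to day 5 at 0.42 (0.00848). Of all 334 miRNAs under that scaling, 94 rose and 95 fell from day 1 to day 5 at this threshold. From day 3 to day 5, 49 rose and 28 fell.

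The share of the detected signal taken by each member restates that scaling on a linear scale and is no separate support. miR-26a took 0.573% to 0.697% at day 1, 0.598% to 0.605% at day 3, and 0.762% to 0.886% at day 5, so that all day 5 arrays were above all earlier ones. miR-26b took 0.547% to 0.776%, 0.543% to 0.563%, and 0.722% to 0.775%. The day 5 arrays of miR-26b were above those of day 3 and within the range of day 1. How many of all miRNAs lacked overlap between days in these shares was not counted. From day 1 to day 3 both members had negative differences under all 6 scalings, -0.86 to -0.03 for miR-26a and -1.04 to -0.23 for miR-26b, with the lowest where no scaling was used.

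**Figure D5:**
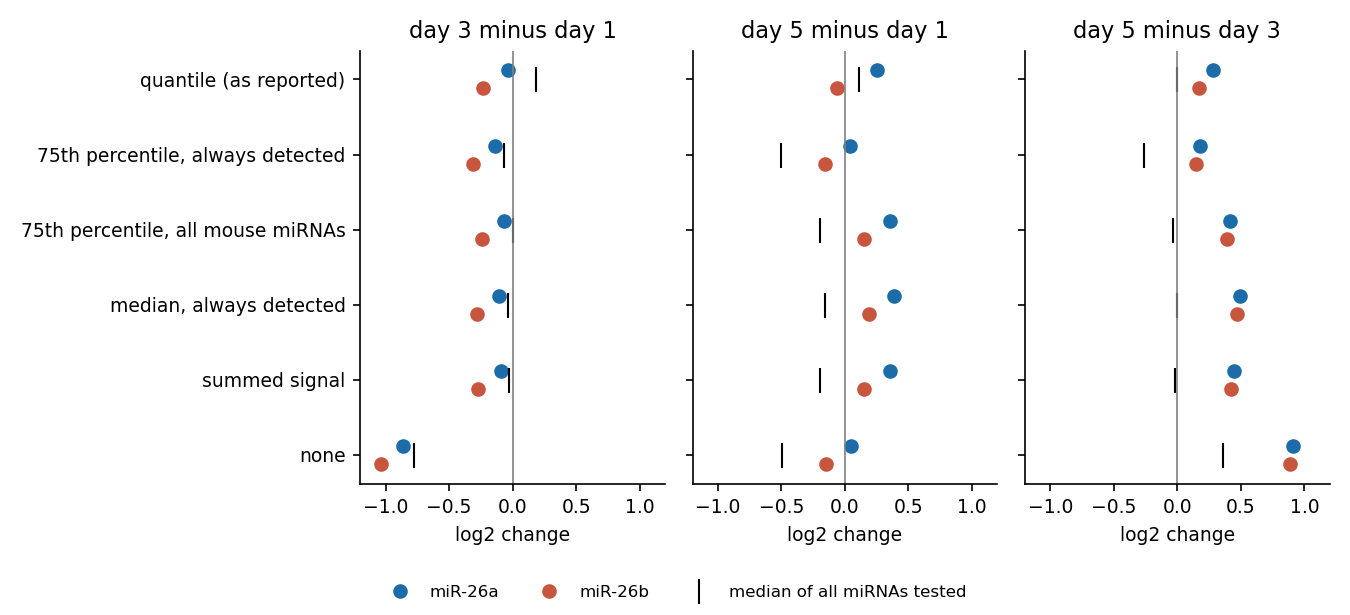
Change of miR-26a (blue) and miR-26b (red) between each pair of days on the log2 scale under 6 ways to scale the arrays, with the median change of all miRNAs tested as a black tick. From day 1 to day 5 the value of miR-26b lies at -0.16 to 0.19, on either side of 0, and that of miR-26a at 0.04 to 0.39.

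Each hairpin also gives a strand from its other arm. For these, the array names given held miR-26b*, now called miR-26b-3p, whose sequence is shown with its own seed in capitals.
miR-26b-3p: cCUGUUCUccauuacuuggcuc
It was marked as detected on 2 of 12 arrays, replicates 2 and 3 of day 1, with total signals of 43.4 and 76.9. Its signals on all arrays lay between 43.4 and 107 at day 1, 25.8 and 73.1 at day 3, and 19.4 and 127 at day 5, and the days overlapped (F test of limma, adjusted p 0.894). The other-arm strands of Mir26a-1 and Mir26a-2 were not analysed here.

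The let-7 miRNAs, which like miR-26 are broadly expressed and are known to increase in many differentiating cells, served as a second family. All 9 (let-7a to let-7g, let-7i, and miR-98) were detected on 12 of 12 arrays. In limma contrasts with adjusted p under 0.01, 5 of 9 rose from day 1 to day 3 and 5 of 9 from day 1 to day 5, where 27.2% and 31.7% of all miRNAs rose (25.1% and 29.0% fell), and none of the 9 fell, except that without scaling between arrays 0 rose and 2 fell from day 1 to day 3. The counts moved with the scaling. Under the 4 other scalings 3 of 9 rose from day 1 to day 3 and 3 to 8 of 9 from day 1 to day 5, and without scaling 2 of 9 rose from day 1 to day 5. Their median differences were 0.72 and 0.92, against 0.18 and 0.11 over all miRNAs and against the 0.25 and -0.06 of miR-26a and miR-26b from day 1 to day 5. The largest rise from day 1 to day 5 was that of let-7e, 2.38 (SE 0.24, adjusted p 6.74e-06), and the smallest difference was 0.17 for let-7g (adjusted p 0.0745).

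Among 17 miRNAs that other work ties to osteoclast formation, 14 were detected on at least 1 array, and miR-31, miR-124, and miR-9 on none. Between days 1 and 3, 4 of the 14 rose and 2 fell (limma adjusted p under 0.01), and between days 1 and 5, 8 rose and 3 fell, with medians of 0.15 and 0.95. The shares over all miRNAs were 27.2% and 25.1% and then 31.7% and 29.0%. Of those called between days 1 and 5, miR-214 (a rise) is counted again below among the stromal miRNAs. miR-223 (a fall) is named again below as a granulocytic miRNA. miR-214 was detected on only 4 of 12 arrays. The count that fell by day 5 was 1 under 3 of the other scalings. Without scaling between arrays 0 of the 14 rose and 4 fell from day 1 to day 3, with a median of -0.63. From day 1 to day 5, 8 rose and 2 fell without scaling. Of those detected on all 12 arrays, miR-125a-5p had the largest rise, 1.92 (limma adjusted p 7.50e-05). The smallest difference among these was 0.21 for miR-21 (limma adjusted p 0.0185), a miRNA known to promote osteoclast formation. Its normalized value at day 5 was 16.34 with an SD of 0, so that its rank was equal on these arrays. Quantile normalization limits how far so bright a miRNA can rise, and its change was not set against that of miR-26a.

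The signal of miRNAs known as markers of other marrow cells also differed between the days. The erythroid miRNAs on the array, miR-451 and miR-144, together took 1.94% to 2.89% of the detected signal at day 1, 0.0795% to 0.156% at day 3, and at most 0.0188% at day 5. The 3 lymphoid miRNAs (miR-150, miR-181a, and miR-181b) took 0.143% to 0.194%, 0.125% to 0.142%, and 0.119% to 0.140%, but did not move together. From day 1 to day 3 miR-181a fell by 0.96 on the log2 scale (limma adjusted p 0.000250) and miR-181b rose by 0.79 (0.000389). miR-150 was detected on the 4 arrays of day 1 and on none later. It differed by -3.02 from day 1 to day 3 (limma adjusted p 0.0770) and by -3.08 from day 1 to day 5 (0.0670). The granulocytic and myeloid miR-223 went from 4.32-5.80% at day 1 to 3.95-4.25% and 3.99-4.36%, and the megakaryocytic and endothelial miR-126-3p was detected on the 4 arrays of day 1 and on none later. The 5 stromal miRNAs (miR-214, miR-199a-3p and -5p, miR-143, and miR-145) took 0.0299% to 0.0433% at day 1, 0.0225% to 0.0372% at day 3, and 0.142% to 0.231% at day 5. From day 1 to day 5, 4 of the 5 rose (limma adjusted p under 0.01), where 31.7% of all miRNAs did. The exception was miR-145 (-0.13, limma adjusted p 0.918), detected on 1 array of day 1 and none later. Both miR-143 and miR-214 were detected on only 3 arrays of day 5. The part of these shifts in the values of miR-26a and miR-26b was not tested, and in such bulk RNA fewer cells of a type and less RNA per cell cannot be told apart.

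Across the 12 arrays the members did not follow each other closely. Pearson's r between normalized miR-26a and miR-26b was 0.347, which placed miR-26b at rank 60 of 147 among the miRNAs most like miR-26a, and miR-26a at rank 19 for miR-26b. The points share their day, slide, and scaling, and r is a description here. Most like miR-26a were miR-146a (0.896), a feedback regulator of NF-κB signaling, then miR-322 (0.842), miR-30e (0.821), miR-324-3p (0.814), and miR-30a (0.781). Of these, miR-146a was at 1.16 from day 1 to day 5 where miR-26a was at 0.25, so that a high r went with changes of different size.

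Most like miR-26b were miR-10a (0.837), miR-195 (0.758), miR-15a (0.721), miR-652 (0.694), and miR-340-3p (0.580). miR-195 and miR-15a belong to the miR-15/16 family, known for repressing cell cycle genes. By distance between values centered on their own mean, in place of r, miR-324-3p was nearest to miR-26a and miR-652 to miR-26b. The choice of measure mattered, since 1 of 5 names was shared between the measures for miR-26a and 2 of 5 for miR-26b.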

How the data were processed

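The deposited scanner files (Feature Extraction 9.5.3.1) give linear intensity, from which the authors' software had subtracted background, and arrays are not yet scaled to each other. The total signal of a miRNA adds up its probes. The normalized table deposited by the authors, in log2 after quantile normalization in GeneSpring, was used as an alternative. Here, total signals were taken for the 334 miRNAs with detection on 1 or more arrays, scaled by quantile normalization in limma 3.58.1 (R 4.3.3), raised to a floor of 1 (372 values, 9.28%, none of miR-26a or miR-26b), and converted to log2. lmFit and eBayes were fitted with 1 mean per day over 12 arrays. P values were adjusted by Benjamini and Hochberg over all 334 miRNAs, with a threshold of 0.01. Quantile normalization removes differences in total signal between arrays. The number of arrays limits the precision.

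Single members were also compared by exact permutation (Python 3.11.15, numpy 2.4.6, pandas 2.3.3, scipy 1.17.1, matplotlib 3.10.9). The 95% intervals come from limma. The limma fit of the within-array difference and the removal of replicate 4 of days 1 and 5 together were chosen after seeing the data. Named beside both members were the other-arm strands, the 5 miRNAs with the highest r to each among those detected on all 12 arrays, the largest and smallest day 5 against day 1 change in the let-7 and osteoclast lists among these, list members detected on no array, and the marker miRNAs. The members and lists were chosen with earlier results of these data known. The markers miR-144* and miR-486 were not analysed here. The fit was tested on simulated data. Alternatives covered the filter on dim miRNAs, scaling, signal and background, floor, test, replicate block, arrays in the fit, single probes, and each array left out in turn.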

Additional observations from a re-analysis of the deposited data

Results flagged for a closer look

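Replicate 4 of day 1 stood apart from the other day 1 cultures in the relation of the members. Its normalized miR-26a minus miR-26b was 0.2643 on the log2 scale, against -0.17 to -0.11 on the other 3 arrays, and the gap to the nearest was 0.867 of the whole range of the group. Its ratio of total signals was 1.22432, against 0.875 to 0.898, with a gap of 0.935 of the range. Of 27 groups of 4 arrays checked, 2 were past Dixon's 95% critical value, both from this array and from the same signals, and chance passes about 1 in 20 groups.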

How the results depend on the processing

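Over 379 comparisons of a value with its alternatives, 352 kept their direction and their side of the threshold or stayed within the limit for a count, 13 newly passed the threshold, 10 changed direction, and 4 counts moved by more than 1.5 times. The comparisons were not separate checks. A lower floor could not move the changes of the members, and scalings by a single factor per array share the same within-array difference. The 352 therefore do not measure how firm the results are. With arrays scaled to the summed detected signal, the largest difference of miR-26a was 0.45 (adjusted p 0.00187), its changes were 0.35 from day 1 to day 5 and 0.45 from day 3 to day 5, and miR-26b was at 0.42 from day 3 to day 5. In that fit 192 of 334 miRNAs were called over the 3 days. With no scaling, where 196 of 334 miRNAs were called, the largest difference was 0.91 for miR-26a (adjusted p 0.000241) and 1.04 for miR-26b (0.00104). There miR-26a was at -0.86 from day 1 to day 3 and 0.91 from day 3 to day 5, and miR-26b at -1.04 and 0.88. From day 1 to day 5 miR-26b turned positive at 0.15 (75th percentile of all miRNAs), 0.19 (median), and 0.15 (summed signal). Without replicate 4 of days 1 and 5 together, miR-26a from day 1 to day 3 was 0.026, miR-26b was -0.28, and the excess of miR-26a over miR-26b was 0.31 from day 1 to day 3 and 0.46 from day 1 to day 5. Single probes turned direction at 0.12 and 0.021 (miR-26a, day 1 to day 3) and at 0.030 and 0.11 (miR-26b, day 1 to day 5). The cause of these differences was not tested. With each array left out in turn, miR-26a ranged from -0.065 to 0.020 (day 1 to day 3), 0.21 to 0.34 (day 1 to day 5), and 0.24 to 0.38 (day 3 to day 5), and miR-26b from -0.27 to -0.18, -0.14 to -0.012, and 0.10 to 0.23, and no member passed 0.01. The excess of miR-26a over miR-26b ranged from 0.14 to 0.29, 0.25 to 0.41, and 0.035 to 0.15, and the adjusted exact permutation p passed 0.05 for the first 2 pairs of days without day 1 replicate 4 only. The count of changed miRNAs was 210, and 114 when only the 148 miRNAs detected on all arrays were tested. The count changed more than 2-fold was 156, and 58 with that filter, 100 with normexp background correction, and 99 with the authors' deposited values. With an intensity trend in limma the adjusted p of the excess from day 1 to day 5 was 0.705, where it was 0.0598 without the trend. The trend gave this difference, which is near 0, the spread of the dimmest miRNAs, so that the 0.705 cannot show how firm the excess is. With the replicate number as a block, miR-26a had an adjusted p of 0.0209 over the 3 days and miR-26b 0.150, 206 miRNAs were called, and no call of a member changed. Of the pairs of arrays with the same replicate number, 7 of 12 correlated above 0.1 (r from -0.44 to 0.70). These values cannot decide whether replicate numbers pair the arrays, and the main fit took the arrays as unpaired. Precision was limited by 4 arrays per day, and both members were far above background on all arrays.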
